A study of Homo sapiens with 12 samples.

Results

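The HSP70 and HSP110 chaperones described here are the 10 genes HSPA1L, HSPA2, HSPA4, HSPA4L, HSPA6, HSPA8, HSPA9, HSPA13, HSPA14 and HSPH1. They were read from the 27 probe sets that the platform annotation assigns to 1 of these genes and no other member, of 54675 probe sets on the array. A probe set is a group of short probes for 1 transcript. Of the 27, 23 list a single symbol. The 4 probe sets of HSPA8 also list SNORD14C and SNORD14D, small nucleolar RNA genes that lie inside HSPA8 in RefSeq, and were kept as HSPA8. Another 3 probe sets match both HSPA1A and HSPA1B, near-identical copies of the major inducible HSP70 gene, and are given as 1 unit beside the members. One of these, 200800_s_at, also lists HSPA1L.

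HSP70 proteins bind stretches of unfolded protein and release them in a cycle driven by ATP. J-domain co-chaperones deliver the client and trigger ATP hydrolysis, and nucleotide exchange factors reset the cycle. HSP110 proteins are distant HSP70 relatives that act as such exchange factors. In the heat shock response, misfolded protein frees the transcription factor HSF1, which binds heat shock elements, inverted repeats of the triplet GAA, in front of its target genes. Differentiated intestinal epithelium keeps constitutive HSP70 proteins and makes inducible ones under stress from heat, metals or proteasome block.

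The cells were Caco-2, an established human colon carcinoma line whose confluent monolayers take on features of small-intestinal absorptive cells. All groups were at passage 22 and 21 days after confluence, and all were kept for 24 h in 20 mL of DMEM with 1% ITS supplement (insulin, transferrin, selenium) and 1% penicillin and streptomycin. The 4 groups of 3 arrays each were cells given surfactant-coated silver nanoparticles (AgPURE) at 25 µg/mL, the same particles at 2.5 µg/mL, silver ions as AgNO3 at 0.5 µg/mL, and medium with no silver. No group had the surfactant alone, so surfactant and silver cannot be told apart in the particle groups, and the ion dose matches neither particle dose. Whether the 3 arrays of a group stand for 3 cultures is not stated in the labels, so the p-values refer to array-to-array spread, part or all of which could be technical.

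Each value is the log2 expression of a probe set on 1 array, on which a difference of 1 is a 2-fold change. The 3 arrays at 25 µg/mL stood apart from the others: across probe sets they correlated with each other at r of 0.994 to 0.995, and with the medium arrays at 0.978 to 0.981. Of 14 measured markers of intestinal epithelium and Caco-2 cells, EPCAM, CDH1, KRT8, KRT18 and KRT19 lay above percentile 99 of all genes, VIL1 at 92.7, DPP4 at 88.8 and FABP1 at 69.2. The other brush border enzyme genes lay lower, ALPI at percentile 44.9, ANPEP at 22.5 and SI at 5.3, and CDX2, CDX1 and KRT20 lay at 52.4, 52.0 and 32.9. At 25 µg/mL against medium, 1 of the 14 was higher and 6 were lower, beside 14.1% and 19.3% of all genes. Their mean level was 8.45 to 8.48 on the 25 µg/mL arrays and 8.77 to 8.82 on the medium arrays. Of 6 fibroblast markers 2 were higher and 2 lower, of 5 leukocyte markers 0 and 2, and of 3 endothelial markers 1 and 0. The mean levels at 25 µg/mL and in medium were 6.06 to 6.16 and 6.29 to 6.46 for the fibroblast list, 5.33 to 5.68 and 5.81 to 5.91 for the leukocyte list, and 4.95 to 5.15 and 4.70 to 4.85 for the endothelial list. The 5 leukocyte markers lay at percentiles 15.1 (PTPRC), 34.8 (CD3E), 48.5 (CD14), 49.7 (CD79A) and 78.6 (LYZ) of all genes. The 6 fibroblast markers lay at 84.8 (COL1A1), 77.8 (PDGFRA), 57.2 (COL3A1), 31.9 (LUM), 30.9 (DCN) and 23.2 (COL1A2). The 3 endothelial markers lay at 45.7 (PECAM1), 39.6 (VWF) and 19.1 (CDH5). The part of the shifts of these lists in the results below was not tested.

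The stretch in front of a gene is where heat shock elements are read, so the 250 bases before the RefSeq start (GRCh38.p14) are shown for 4 genes on which the results turn. Capitals mark matches to GAANNTTC or TTCNNGAA, the motif of 2 units, and to GAANNTTCNNGAA or TTCNNGAANNTTC, the motif of 3 units. These forms cover both strands, and each match of 3 units holds matches of 2 units. HSPA6 is read from chr1:161524290-161524539 on the plus strand, HSPA1A from chr6:31815293-31815542 on the plus strand, HSPA8 from chr11:123062137-123062386 on the minus strand and HSPH1 from chr13:31162389-31162638 on the minus strand.
HSPA6: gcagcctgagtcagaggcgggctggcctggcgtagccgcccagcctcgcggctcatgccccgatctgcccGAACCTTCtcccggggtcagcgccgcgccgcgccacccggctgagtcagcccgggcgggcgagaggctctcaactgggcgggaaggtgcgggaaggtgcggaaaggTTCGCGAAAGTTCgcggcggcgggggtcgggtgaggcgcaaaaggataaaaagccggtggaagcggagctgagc
HSPA1A: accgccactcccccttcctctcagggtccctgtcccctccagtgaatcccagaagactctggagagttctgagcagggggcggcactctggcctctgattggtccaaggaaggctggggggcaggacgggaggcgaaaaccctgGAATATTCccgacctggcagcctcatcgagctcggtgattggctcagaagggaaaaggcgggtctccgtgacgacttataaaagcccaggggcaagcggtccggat
HSPA8: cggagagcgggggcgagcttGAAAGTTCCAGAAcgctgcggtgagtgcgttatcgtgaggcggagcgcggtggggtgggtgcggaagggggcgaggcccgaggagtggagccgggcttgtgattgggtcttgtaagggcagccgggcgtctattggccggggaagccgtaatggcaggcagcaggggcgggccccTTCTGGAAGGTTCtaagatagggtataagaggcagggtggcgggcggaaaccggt
HSPH1: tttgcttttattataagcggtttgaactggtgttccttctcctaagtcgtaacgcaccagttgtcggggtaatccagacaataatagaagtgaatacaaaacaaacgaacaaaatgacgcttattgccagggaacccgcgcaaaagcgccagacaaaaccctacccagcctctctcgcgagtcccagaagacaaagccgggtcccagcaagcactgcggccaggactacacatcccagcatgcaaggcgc

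The search covered windows of 300 bases, from 250 before to 50 after each start, and 11 of the 12 genes had a window. A match of 3 units stood in 172 of 35116 RefSeq windows (0.49%) and a match of 2 units in 13.49%. HSPA6 held 1 match of 3 units, TTCGCGAAAGTTC, that began 74 bases before the start, and a match of 2 units that began 180 before it. HSPA8 held 2 matches of 3 units, GAAAGTTCCAGAA at 230 and TTCTGGAAGGTTC at 55 bases before the start. HSPA1A, HSPA1B, HSPA1L, HSPA4L and HSPA9 held a match of 2 units alone. HSPA4L had windows for several starts. Its match lay in chr4:127782072-127782371, and chr4:127781546-127781845 and chr4:127783273-127783572 held none. The windows of HSPA1L and HSPA1A share 241 bases, since the genes start next to each other on opposite strands, and the GAATATTC at 106 bases before HSPA1A is the one at 161 before HSPA1L. In the windows of HSPH1, HSPA4, HSPA2 and HSPA13 neither motif was found, which says only that these letters are not there.

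The chaperones were compared first between 25 µg/mL particles and medium, the comparison that asks what the high particle dose does to the cells. By limma, a linear model for arrays, with p-values adjusted over all 54613 probe sets that are not array controls, 23 of the 27 member probe sets were higher at an adjusted p under 0.05 and 0 were lower, beside 12.5% of all probe sets higher and 13.4% lower. All 10 genes had at least 1 probe set that was higher. Among the 23 probe sets with a single symbol, 19 were higher. The 3 arrays at 25 µg/mL lay above all 3 medium arrays for 24 of 27 member probe sets, beside 19.1% of all probe sets. A change of at least 2-fold was seen for 7 of 27, those of HSPA6, HSPA1L and HSPH1, beside 1.32% of all probe sets. The median log2 difference was 0.46 over the members and 0.01 over all probe sets. In bulk RNA, fewer cells of a kind and less RNA per cell cannot be told apart.

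These directions are relative to the deposited normalization, which sets the arrays to a common distribution. Control RNA probe sets were higher on the 25 µg/mL arrays than on the medium arrays: the mean of 24 poly-A controls was 5.56 to 6.31 against 5.31 to 5.54, and that of 18 hybridization controls 10.89 to 11.08 against 10.43 to 10.66. Poly-A scaling, which sets the mean of those controls equal on all arrays, moved the median of all probe sets to -0.60. It left 7 members higher and 3 lower, beside 501 higher and 36144 lower of all 54613 probe sets. Hybridization-control scaling moved that median to -0.42 and left 8 members higher and 3 lower, beside 1412 and 32263 of all. The 3 members lower under each were HSPA4 208814_at, HSPA9 232200_at and HSPA13 202558_s_at. Under both, the calls of HSPA6, HSPA1L, HSPH1 and the HSPA1A/HSPA1B unit were higher. Either scaling shifts all probe sets of an array by 1 amount, so it leaves the members where they were relative to the other probe sets. The smaller changes below are given relative to the bulk of the probe sets.

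**Figure D1:**
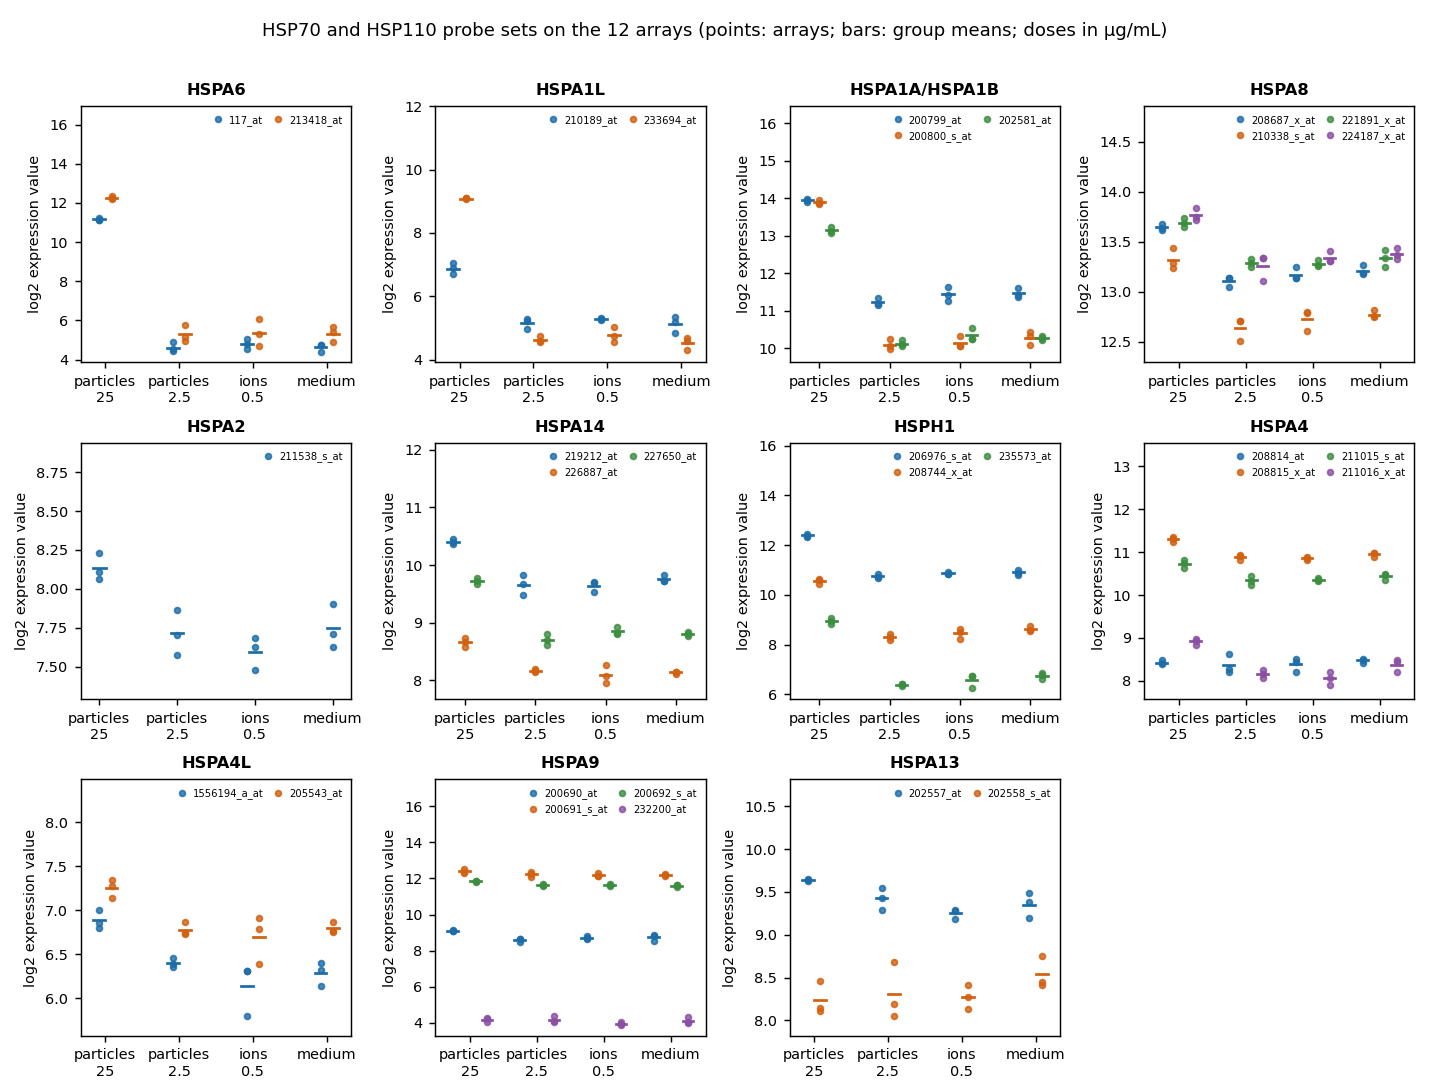
Log2 expression value of every member probe set and of the HSPA1A/HSPA1B unit on each of the 12 arrays, by group (points are arrays, bars are means of 3 arrays, doses in µg/mL, axes differ between panels). HSPA6, HSPA1L, HSPA1A/HSPA1B and HSPH1 stand clear of the other groups at 25 µg/mL, and the 2.5 µg/mL, ion and medium arrays lie close together.

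HSPA6 encodes an HSP70 protein that human cells make almost only under stress. Probe set 213418_at had values of 12.33, 12.19 and 12.23 on the 25 µg/mL arrays, 5.77, 4.97 and 5.18 on the 2.5 µg/mL arrays, 4.70, 5.31 and 6.06 with ions, and 5.42, 5.65 and 4.89 in medium. Probe set 117_at had 11.21, 11.14 and 11.12 on the 25 µg/mL arrays, 4.88, 4.46 and 4.52 on the 2.5 µg/mL arrays, 4.80, 4.55 and 5.05 with ions, and 4.76, 4.76 and 4.40 in medium. On both probe sets the 25 µg/mL arrays lay far above the 9 others, whose 3 groups overlapped. Against medium, 213418_at rose 122-fold, with a log2 difference of 6.93 ± 0.27 (SE, adjusted p = 2e-10), and 117_at 91.8-fold, with 6.52 ± 0.14 (adjusted p = 1.7e-13). They ranked 1 and 2 among all 54613 probe sets by log2 difference. In medium the probe sets lay at percentiles 59.5 and 47.5 of all probe sets and no background is stated, so the size of the fold depends on how much of that low value is signal. HSPA7, a transcribed pseudogene close to HSPA6 in sequence, may share these probes.

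HSPA1L encodes an HSP70 known mainly from the testis and starts beside HSPA1A in the major histocompatibility region. Its probe set 233694_at had values of 9.09, 9.10 and 9.06 on the 25 µg/mL arrays, 4.74, 4.58 and 4.55 on the 2.5 µg/mL arrays, 5.02, 4.75 and 4.57 with ions, and 4.69, 4.30 and 4.58 in medium. It rose 23.6-fold at 25 µg/mL against medium (log2 difference 4.56 ± 0.12 SE, adjusted p = 3.3e-12) and ranked 4 of all probe sets. The other probe set, 210189_at, had 7.04, 6.69 and 6.89 on the 25 µg/mL arrays, 5.27, 5.22 and 4.95 on the 2.5 µg/mL arrays, 5.31, 5.24 and 5.29 with ions, and 5.18, 5.34 and 4.84 in medium. It rose 3.37-fold (1.75 ± 0.13 SE, adjusted p = 1.4e-07), so the 2 probe sets of HSPA1L share the direction and differ widely in size. As for HSPA6, the medium values were low, at percentiles 44.5 and 56.8. Whether these probe sets also read transcripts of HSPA1A or HSPA1B, which rose as well, was not tested.

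The HSPA1A/HSPA1B unit, the major inducible HSP70 of human cells, was already abundant in medium, at percentiles 96.1 to 98.6 of all probe sets. Probe set 202581_at had values of 13.23, 13.08 and 13.13 on the 25 µg/mL arrays, 10.11, 10.05 and 10.22 on the 2.5 µg/mL arrays, 10.25, 10.25 and 10.53 with ions, and 10.32, 10.27 and 10.22 in medium. The 25 µg/mL arrays lay above all others, and the other 3 groups lay close to each other. All 3 probe sets of the unit rose at 25 µg/mL against medium, 200800_s_at 12.3-fold (3.62 ± 0.11 SE), 202581_at 7.34-fold (2.88 ± 0.10) and 200799_at 5.58-fold (2.48 ± 0.11), with adjusted p of 5.5e-10 or lower. These sequences are shared between the copies and in part with HSPA1L, so the signal cannot be divided among the 3 genes.

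HSPA8, or HSC70, is the constitutive HSP70 of the cytosol, which folds new proteins, strips clathrin from vesicles and feeds chaperone-mediated autophagy. Its 4 probe sets were among the brightest on the array, at percentile 99.5 or above in every group. Probe set 210338_s_at had values of 13.24, 13.44 and 13.29 on the 25 µg/mL arrays, 12.71, 12.71 and 12.51 on the 2.5 µg/mL arrays, 12.79, 12.80 and 12.61 with ions, and 12.81, 12.75 and 12.76 in medium. The 25 µg/mL arrays lay above all others, and the 2.5 µg/mL arrays lay just below the medium arrays. At 25 µg/mL against medium the 4 probe sets of HSPA8 rose between 1.28-fold (221891_x_at, log2 difference 0.35 ± 0.08 SE, adjusted p = 0.0051) and 1.46-fold (210338_s_at, 0.55 ± 0.10, adjusted p = 0.00049). Under poly-A scaling all 4 differences turned negative, between -0.26 and -0.07, and under hybridization scaling they lay between -0.07 and 0.12, with no call under either. HSPA8 and HSPA6 are the members whose windows above hold a match of 3 units, and their changes differ widely in size. The suffix _x_at marks probe sets whose probes can also match other transcripts.

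HSPA2, an HSP70 best known from male germ cells, had values of 8.11, 8.23 and 8.07 on the 25 µg/mL arrays, 7.71, 7.86 and 7.58 on the 2.5 µg/mL arrays, 7.48, 7.63 and 7.68 with ions, and 7.63, 7.90 and 7.71 in medium on its 1 probe set, 211538_s_at. No 25 µg/mL array overlapped the others. HSPA2 rose 1.31-fold at 25 µg/mL against medium (0.39 ± 0.11 SE, adjusted p = 0.012). The sign turned under poly-A (-0.23) and hybridization scaling (-0.04), with no call under either. Leaving out medium replicate 1 (adjusted p = 0.06) or 25 µg/mL replicate 2 (adjusted p = 0.058) also ended the call.

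HSPA14 is an HSP70-like protein that sits on the ribosome with the J-domain protein DNAJC2 and helps nascent chains fold. Probe set 227650_at had values of 9.67, 9.73 and 9.77 on the 25 µg/mL arrays, 8.69, 8.61 and 8.81 on the 2.5 µg/mL arrays, 8.82, 8.81 and 8.93 with ions, and 8.81, 8.77 and 8.84 in medium. The 25 µg/mL arrays lay clear of all others on this probe set. All 3 probe sets of HSPA14 rose at 25 µg/mL against medium, 227650_at 1.89-fold (0.91 ± 0.09 SE, adjusted p = 1.9e-06), 219212_at 1.57-fold (0.65 ± 0.10, adjusted p = 0.00015) and 226887_at 1.43-fold (0.52 ± 0.09, adjusted p = 0.00063). Under poly-A scaling 226887_at turned to -0.09 and the calls of 227650_at (0.30) and 219212_at (0.04) were lost. Under hybridization scaling 227650_at stayed higher (0.49, adjusted p = 0.009), and 219212_at (0.22) and 226887_at (0.09) were not called.

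HSPH1, or HSP105, is the heat-inducible member of the HSP110 exchange factors, which also help dissolve protein aggregates. Probe set 206976_s_at had values of 12.45, 12.37 and 12.35 on the 25 µg/mL arrays, 10.70, 10.68 and 10.86 on the 2.5 µg/mL arrays, 10.85, 10.85 and 10.91 with ions, and 11.01, 10.89 and 10.81 in medium. Probe set 235573_at had 9.08, 8.95 and 8.83 on the 25 µg/mL arrays, 6.33, 6.42 and 6.42 on the 2.5 µg/mL arrays, 6.27, 6.75 and 6.73 with ions, and 6.84, 6.78 and 6.60 in medium. On both, the 25 µg/mL arrays lay above all others, and on 235573_at the 2.5 µg/mL arrays lay below all 3 medium arrays. All 3 probe sets of HSPH1 rose at 25 µg/mL against medium, 235573_at 4.63-fold (2.21 ± 0.12 SE), 208744_x_at 3.85-fold (1.94 ± 0.12) and 206976_s_at 2.80-fold (1.48 ± 0.09), with adjusted p of 1.9e-08 or lower. Under poly-A scaling the differences were 1.60, 1.33 and 0.87, and under hybridization scaling 1.78, 1.52 and 1.06, all still called.

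HSPA4, the constitutive HSP110 protein of the cytosol, rose on 3 of its 4 probe sets, and by less than HSPH1. Probe set 208815_x_at had values of 11.36, 11.30 and 11.23 on the 25 µg/mL arrays, 10.94, 10.90 and 10.81 on the 2.5 µg/mL arrays, 10.89, 10.82 and 10.87 with ions, and 10.99, 10.99 and 10.90 in medium. All 25 µg/mL arrays stood above the others on it. Its log2 difference against medium was 0.34 ± 0.09 (SE, adjusted p = 0.0069), that of 211016_x_at 0.54 ± 0.11 (adjusted p = 0.0012) and that of 211015_s_at 0.30 ± 0.09 (adjusted p = 0.023). All 3 turned negative under poly-A scaling, and 208815_x_at and 211015_s_at did so under hybridization scaling too, with no call of these 3 under either. Leaving out medium replicate 3 (adjusted p = 0.092) or 25 µg/mL replicate 2 (0.098) or 3 (0.062) ended the call of 211015_s_at. The fourth, 208814_at, had a difference of -0.05 with a 95% interval of -0.29 to 0.20 (adjusted p = 0.82).

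HSPA4L, the HSP110 protein first described in testis, had probe sets at percentiles 70.1 and 74.4 of all probe sets in medium. Probe set 205543_at of HSPA4L had values of 7.28, 7.35 and 7.14 on the 25 µg/mL arrays, 6.75, 6.87 and 6.73 on the 2.5 µg/mL arrays, 6.39, 6.91 and 6.79 with ions, and 6.75, 6.86 and 6.77 in medium. Every 25 µg/mL array lay above the rest. Both probe sets rose at 25 µg/mL against medium, 1556194_a_at 1.52-fold (0.60 ± 0.13 SE, adjusted p = 0.0022) and 205543_at 1.38-fold (0.46 ± 0.12, adjusted p = 0.0089). Both calls were lost under the control scalings, at -0.01 and -0.15 under poly-A scaling and 0.17 (adjusted p = 0.33) and 0.04 (adjusted p = 0.85) under hybridization scaling.

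HSPA9, or mortalin, is the HSP70 of the mitochondrial matrix, where it pulls in imported proteins and serves iron-sulfur cluster assembly. Probe set 200692_s_at had values of 11.86, 11.84 and 11.82 on the 25 µg/mL arrays, 11.68, 11.56 and 11.64 on the 2.5 µg/mL arrays, 11.62, 11.60 and 11.67 with ions, and 11.66, 11.61 and 11.51 in medium. The 25 µg/mL arrays were highest and did not overlap the others. Of the 4 probe sets of HSPA9, 200690_at rose (0.37 ± 0.10 SE, adjusted p = 0.012) and so did 200692_s_at (0.24 ± 0.08, adjusted p = 0.044). The brightest, 200691_s_at, had a difference of 0.22 with an adjusted p of 0.13 (0.018 with an intensity trend in the fit), and the dim 232200_at, at percentile 31.6 in medium, one of 0.05 with an adjusted p of 0.81. The call of 200692_s_at was lost when any of 9 of the 12 arrays was left out (adjusted p 0.051 to 0.17), and that of 200690_at without medium replicate 3 (0.078). Under poly-A scaling 200690_at turned to -0.24 and 200692_s_at to -0.37, and under hybridization scaling to -0.05 and -0.18, with no call of these under either.

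HSPA13, a short HSP70-type protein of the secretory pathway that lacks the client-binding part, had probe sets of opposite sign. Probe set 202557_at had values of 9.64, 9.65 and 9.63 on the 25 µg/mL arrays, 9.43, 9.29 and 9.55 on the 2.5 µg/mL arrays, 9.19, 9.28 and 9.29 with ions, and 9.49, 9.38 and 9.19 in medium. Probe set 202558_s_at had 8.15, 8.46 and 8.11 on the 25 µg/mL arrays, 8.19, 8.05 and 8.68 on the 2.5 µg/mL arrays, 8.13, 8.42 and 8.28 with ions, and 8.45, 8.41 and 8.75 in medium. The first was highest at 25 µg/mL without overlap, and on the second the groups overlapped. The difference of 202557_at against medium was 0.28 ± 0.10 (SE, adjusted p = 0.044), a call lost when any of 8 arrays was left out (adjusted p 0.053 to 0.2). Poly-A scaling moved it to -0.33 and hybridization scaling to -0.14, with no call of it under either. The difference of 202558_s_at against medium was -0.30 with a 95% interval of -0.63 to 0.03 (adjusted p = 0.18).

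**Figure D2:**
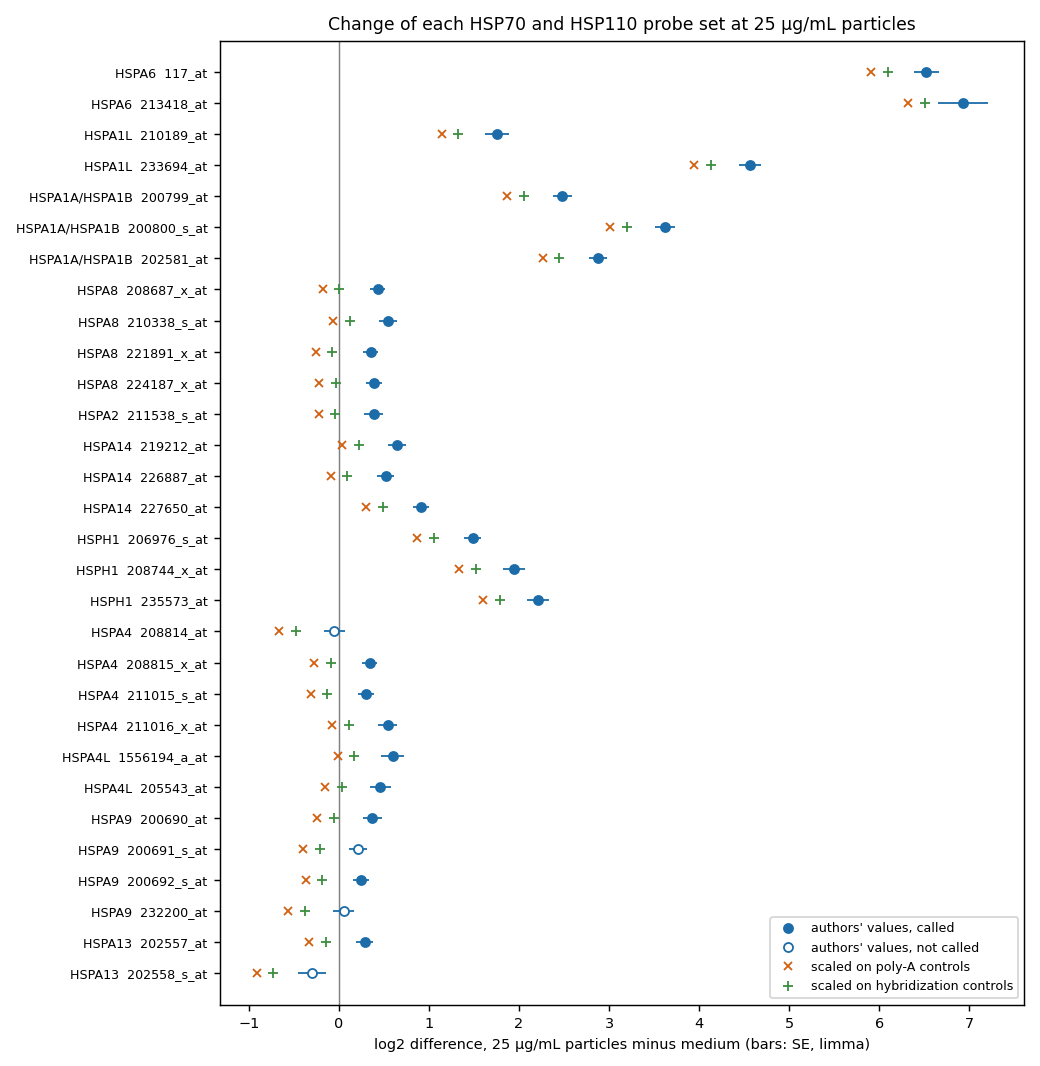
Log2 difference of each member probe set, 25 µg/mL particles minus medium, with the deposited normalization (circles, bars are SE from limma, filled where the adjusted p is under 0.05) and after scaling on poly-A (crosses) or hybridization controls (plus signs). HSPA6, HSPA1L, HSPA1A/HSPA1B and HSPH1 stay right of 0 under all 3, whereas every probe set of HSPA8, HSPA2, HSPA4, HSPA4L, HSPA9 and HSPA13 lies left of 0 under poly-A scaling.

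At 2.5 µg/mL against medium, 0 of the 27 member probe sets were called by limma, as were 0% of all probe sets. At an unadjusted p under 0.05 there were 2 of 27, beside 4.33% of all, and the alternative fits called 0 as well. Both were probe sets of HSPH1, 235573_at with a log2 difference of -0.35 (95% interval -0.62 to -0.09, unadjusted p = 0.012) and 208744_x_at with -0.31 (-0.56 to -0.06, unadjusted p = 0.018), each with an adjusted p of 1. The third, 206976_s_at, had -0.16 (-0.35 to 0.03). The 2.5 µg/mL arrays lay below all medium arrays for 4 of 27 members, beside 4.91% of all probe sets, and above them for 0 of 27, beside 4.99%. The difference was negative for 19 of 27, beside 51.2%. The median difference was -0.08.

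The 95% intervals at 2.5 µg/mL reflect array-to-array spread, part or all of which could be technical. For HSPA6 and HSPA1L the values were low and no background is stated. HSPA6 differed from medium by -0.02 on 213418_at (95% interval -0.60 to 0.57) and by -0.02 on 117_at (-0.32 to 0.28). HSPA1L differed by 0.10 on 233694_at (-0.16 to 0.36). HSPA8 differed by between -0.13 and -0.04 on its 4 probe sets, with intervals that all held 0. In the HSPA1A/HSPA1B unit, 200799_at had -0.24 (-0.47 to -0.01, unadjusted p = 0.04, adjusted p = 1). The largest difference of any member in size was 0.35 on the log2 scale at 2.5 µg/mL and 6.93 at 25 µg/mL.

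With silver ions at 0.5 µg/mL against medium, 0 of 27 members were called by limma, beside 0.00183% of all probe sets, and the alternative fits called 0 as well. At an unadjusted p under 0.05 there was 1 of 27, beside 6.7% of all: 211016_x_at of HSPA4, with a log2 difference of -0.32 (95% interval -0.54 to -0.09, unadjusted p = 0.0094, adjusted p = 0.69). HSPA6 differed from medium by 0.16 on 117_at (-0.14 to 0.46) and by 0.03 on 213418_at (-0.55 to 0.62). HSPA1L had 0.26 on 233694_at (-0.00 to 0.52, unadjusted p = 0.051, adjusted p = 0.75). The ion arrays lay below all medium arrays for 2 of 27 members, beside 5.69% of all probe sets, and above them for 0 of 27, beside 5.36%. The difference was negative for 20 of 27, beside 48.8%, with a member median of -0.05. Between 2.5 µg/mL particles and ions, 0 of 27 members were called and 0 had an unadjusted p under 0.05, beside 0% and 7.85% of all probe sets.

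**Figure D3:**
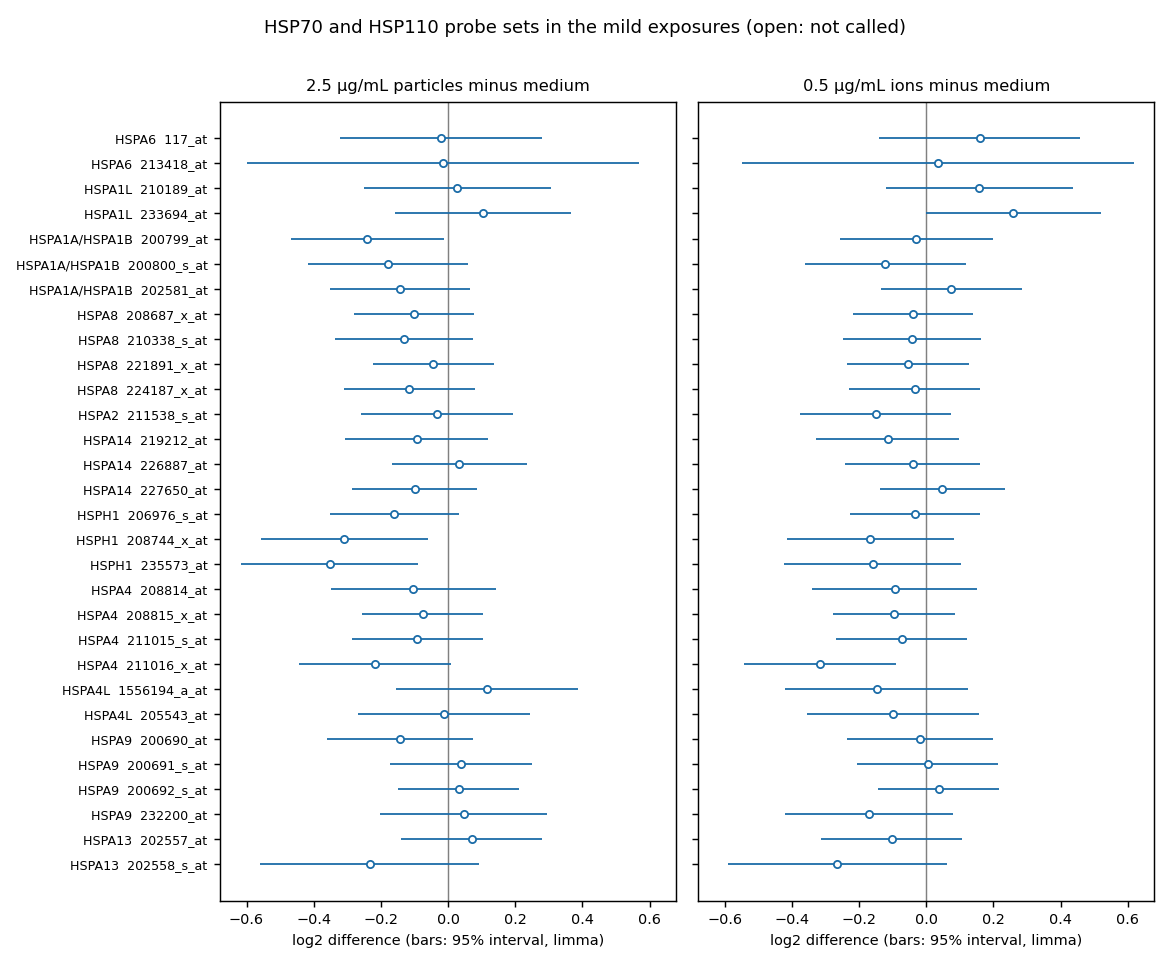
Log2 difference of each member probe set at 2.5 µg/mL particles minus medium (left) and at 0.5 µg/mL silver ions minus medium (right), with 95% intervals from limma. No point is called, all lie between -0.35 and 0.26, and most intervals hold 0.

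Against 2.5 µg/mL particles, 21 of 27 member probe sets, of 9 genes, were higher at 25 µg/mL and 0 were lower, beside 12.1% and 13.9% of all probe sets. Against silver ions, 22 of 27, of all 10 genes, were higher at 25 µg/mL and 0 lower, beside 12.7% and 12.1%. Poly-A scaling changed the member counts to 7 higher and 6 lower against 2.5 µg/mL, beside 349 and 45573 of all 54613 probe sets. Against ions it gave 7 higher and 5 lower, beside 354 and 46859 of all. Hybridization scaling gave 10 higher and 1 lower against 2.5 µg/mL, beside 1502 and 20284 of all. Against ions it gave 9 higher and 2 lower, beside 1482 and 35435 of all. With the deposited normalization, a change of at least 2-fold was seen for 8 of 27 against 2.5 µg/mL and 7 of 27 against ions. The shares of all probe sets were 1.17% and 1.39%. These comparisons share the 25 µg/mL arrays with each other and with the comparison against medium, so they are not separate evidence. HSPA6 on 213418_at had a log2 difference of 6.95 against 2.5 µg/mL and 6.90 against ions, and HSPH1 on 235573_at 2.56 and 2.37. HSPA14 on 227650_at had 1.01 and 0.87, both no longer called under poly-A scaling (0.27, adjusted p = 0.28, and 0.079, adjusted p = 0.75). HSPA9 was higher on 200690_at in both, by 0.52 (adjusted p = 0.0013) and 0.39 (adjusted p = 0.0097), and was not called on 200692_s_at, with 0.21 (adjusted p = 0.079) and 0.21 (adjusted p = 0.09). HSPA13 on 202557_at had 0.21 (adjusted p = 0.13) and 0.39 (adjusted p = 0.0082), and whether these differ was not tested beyond the comparison of 2.5 µg/mL with ions (0.17, adjusted p = 0.68).

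The partners that HSP70 works with were read with 1 probe set per gene, the brightest, in a fit over 19775 genes. Of 63 measured partner genes, 28 were higher and 4 lower at 25 µg/mL against medium, beside 14.1% and 19.3% of all genes, and of 9 members with a single-symbol probe set 8 were higher and 0 lower. At 2.5 µg/mL and with ions 0 of 63 were called by limma, beside 0% of all genes.

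Of 4 measured genes for heat shock factors and their binding proteins, 0 were called at 25 µg/mL, beside 14.1% of all genes higher and 19.3% lower. HSF2, also on that list, was not measured in the gene fit. HSF1, the main regulator of the response, had values of 7.70, 7.81 and 7.44 at 25 µg/mL and 7.54, 7.64 and 7.55 in medium, which overlapped (difference 0.07 ± 0.10 SE, adjusted p = 0.65). HSF4 had a difference of -0.21 (adjusted p = 0.32), HSF2BP, a partner of HSF2, 0.16 (adjusted p = 0.4) and HSBP1, a small protein that binds HSF1, -0.24 (adjusted p = 0.13). With only the 2 groups compared HSBP1 was called lower (adjusted p = 0.032). Unadjusted, 0 of the 4 had a limma p under 0.05, with HSBP1 at 0.054. The share of all genes under that rule is not given here. Scaling on either control set put HSF1, HSF4 and HSBP1 among the genes called lower. In the probe set fit, these scalings called 36144 (poly-A) and 32263 (hybridization) of all 54613 probe sets lower.

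Of 14 J-domain co-chaperones, 8 were higher and 1 lower, with a median difference of 0.44 beside -0.01 over all genes. DNAJB1, the co-chaperone that pairs with inducible HSP70, had values of 12.01, 11.93 and 11.89 at 25 µg/mL and 8.83, 8.93 and 8.81 in medium. It rose 8.50-fold (3.09 ± 0.08 SE, adjusted p = 7.4e-12), and its 25 µg/mL arrays stood far from those of medium. DNAJB6, which holds back aggregation, rose 2.62-fold (1.39 ± 0.10), DNAJA1 1.95-fold (0.96 ± 0.10) and DNAJC7 1.61-fold (0.69 ± 0.08). DNAJC7 lost its call under both control scalings and DNAJA1 under poly-A scaling. The gene that was lower was DNAJC5, a vesicle co-chaperone (-0.28, adjusted p = 0.021), named after its value was seen.

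Of 7 exchange factors other than HSP110, 3 were higher and 1 lower (median 0.31). BAG3, which links HSP70 to autophagy, had values of 11.83, 11.67 and 11.69 at 25 µg/mL and 9.75, 9.77 and 9.79 in medium. It rose 3.90-fold (1.96 ± 0.08 SE, adjusted p = 1.3e-09). BAG2 rose by 0.49 and BAG5 by 0.31, and both turned negative under poly-A scaling (-0.12 and -0.30), with no call. Leaving out medium replicate 3 (0.066) or 25 µg/mL replicate 1 (0.063) also ended the call of BAG5, as did averaging its probe sets (0.22, adjusted p = 0.082). BAG1 had 0.32 (adjusted p = 0.056) and lay near the threshold. It was called higher under quantile normalization (0.026), without dim probe sets (0.038), with an intensity trend (0.03), with array weights (0.028), with only the 2 groups compared (0.045), and when its probe sets were averaged (0.39, adjusted p = 0.0047). The lower gene was BAG4 (-0.24, adjusted p = 0.041), named after its value was seen.

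Of 9 adaptors that bind HSP70 or HSP90, 5 were higher and 0 lower (median 0.29). CHORDC1, an HSP90 partner, rose 1.92-fold (0.94 ± 0.08 SE, adjusted p = 1.2e-06), the prolyl isomerase gene FKBP4 1.91-fold (0.93 ± 0.09) and TTC1 1.82-fold (0.86 ± 0.08), all 3 calls lost under poly-A scaling. PPID, another prolyl isomerase, rose 1.31-fold (0.39), a sign that turned under both control scalings, with no call. Of 15 mitochondrial partners of HSPA9, 4 were higher and 1 lower (median -0.00). GRPEL1, the exchange factor of HSPA9, rose 1.53-fold (0.62 ± 0.08) and HSCB, its J-domain partner in iron-sulfur assembly, 1.46-fold (0.54 ± 0.09), whereas ISCU, the scaffold on which the clusters form, fell by 0.51 (± 0.09, adjusted p = 0.00042). PAM16, part of the import motor, rose by 0.34 (adjusted p = 0.012), a call lost without medium replicate 1 (0.052) or 25 µg/mL replicate 1 (0.06). Under poly-A scaling HSCB and PAM16 turned negative and GRPEL1 came to 0.00, with no call for any of them.

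Of 4 ribosome and clathrin partners of HSPA14 and HSPA8, 2 were higher and 1 lower (median 0.09). DNAJC2, the ribosome partner of HSPA14 and also on the J-domain list, rose by 0.52 ± 0.08 (SE, adjusted p = 0.00011), and GAK, which recruits HSPA8 to clathrin coats, by 0.42 ± 0.09 (adjusted p = 0.0021). DNAJC13 fell by 0.24 (adjusted p = 0.023), a call lost when any of 4 arrays was left out (medium replicate 1 or 2, or 25 µg/mL replicate 1 or 3, adjusted p 0.054 to 0.078) and at -0.12 (adjusted p = 0.25) when its probe sets were averaged. DNAJC6, or auxilin, had -0.33 (adjusted p = 0.055). It was called lower under median centring (0.045), without dim probe sets (0.037) and with array weights (0.043). Both control scalings also called it lower, as they did most probe sets. DNAJC2 and GAK turned negative under poly-A scaling (-0.09 and -0.20) and were not called under hybridization scaling.

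Of 7 other heat shock chaperones, 6 were higher and 0 lower (median 0.62). CRYAB, a small heat shock protein, had values of 9.03, 9.13 and 9.16 at 25 µg/mL and 5.67, 5.61 and 5.68 in medium, and rose 10.9-fold (3.45 ± 0.11 SE). HSPB8, the small heat shock partner of BAG3, rose 1.60-fold (0.67 ± 0.13), HSP90AA1 1.58-fold (0.66 ± 0.08) and the collagen chaperone gene SERPINH1 1.54-fold (0.62 ± 0.10), and these 3 lost their calls under both control scalings. Of the 4 other HSP70-type genes, 1 was higher: HSPA5, the HSP70 of the endoplasmic reticulum, by 0.22 (adjusted p = 0.035), which poly-A scaling moved to -0.39 and hybridization scaling to -0.20. The HSPA5 call was also lost under quantile normalization (adjusted p = 0.071), under median centring (0.072), when its probe sets were averaged (0.15, adjusted p = 0.11), and without any 1 of the medium or 25 µg/mL arrays (0.052 to 0.12). HYOU1, an HSP110-type protein of the same compartment, had -0.13 (adjusted p = 0.45), HSPA12A 0.02 and HSPA12B -0.01.

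**Figure D4:**
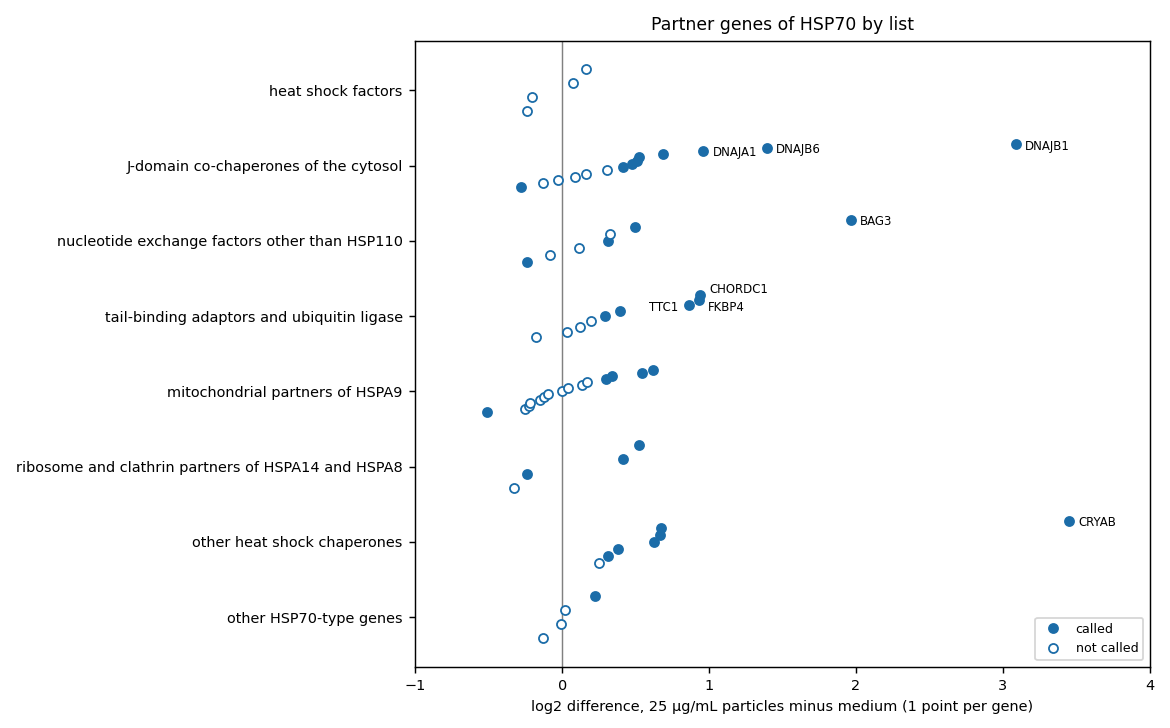
Log2 difference, 25 µg/mL particles minus medium, of 63 HSP70 partner genes in 8 lists (1 point per gene, DNAJC2 on 2 lists, filled where the adjusted p over 19775 genes is under 0.05). DNAJB1, BAG3, CRYAB and DNAJB6 lie furthest right, and no measured gene of the heat shock factor list is called.

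The genes whose values followed a member most closely over the 12 arrays were found by Pearson's r. For HSPA6 (213418_at) they were TNFRSF10D, a decoy receptor for the death ligand TRAIL (r = 0.998), PHLDA2 (0.997), RGS2 (0.996), PLK2 (0.995) and CRYAB (0.995). For HSPA8, on its brightest probe set 224187_x_at, they were TIMM17A, part of the mitochondrial import pore (0.981), NUDC (0.979), GLRX3 (0.974), SAAL1 (0.974) and GAL (0.974). For HSPA9, on 200691_s_at, they were SIRT1 (0.949), ENAH (0.943), TNFRSF10B (0.941), SNHG17 (0.939) and PRR3 (0.934). The arrays fall into 2 clusters, the 3 at 25 µg/mL and the rest, which sets most of r for HSPA6. Over the 9 arrays without 25 µg/mL, r was 0.905 for TNFRSF10D with HSPA6, 0.611 for CRYAB with HSPA6, 0.894 for TIMM17A with HSPA8 and 0.971 for ENAH with HSPA9. These genes were picked as the highest among the 19775 genes of the gene fit with the members left out, and r is given as a description.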

How the data were processed

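RNA from 12 Caco-2 samples was hybridized to 3′ expression arrays. The deposited values are log2 intensities, made by the authors with RMA and Partek, per the submitters' processing notes, with versions not given in the sources used here. RMA sets all arrays to a common distribution, so a change in total mRNA does not show. The file has no detection calls, so dim values have no stated background.

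Of 54675 probe sets, 62 array controls were left out and 54613 tested with limma 3.58.1 in R 4.3.3, in 1 fit over the 4 groups (8 residual degrees of freedom, 7.37 prior), with Benjamini-Hochberg adjustment over all of them. Differences past an adjusted p of 0.05 were called. A second fit used the brightest single-symbol probe set of each of 19775 genes (6.25 prior degrees of freedom). The platform annotation gave 41097 probe sets 1 symbol, 1801 several and 11721 none. The 4 HSPA8 probe sets list several symbols, so HSPA8 is not in the gene fit and its likeness was read from its brightest probe set. The fit was tested on simulated data. The number of arrays limits precision.

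All members were described. Partners were named by rule, as all measured genes of the heat shock factor list and the 4 with the largest difference in each other list. The exceptions were DNAJC5 and BAG4, which were named after their values were seen. The 5 genes most like a member were named by Pearson's r. The members and lists were chosen with earlier results of these data known. Promoter sequences and gene names were taken from RefSeq (GRCh38.p14). Tables and figures used Python 3.11.15, pandas 2.3.3, numpy 2.4.6 and matplotlib 3.10.9.

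Alternatives were quantile normalization, median centring, scaling on poly-A or hybridization controls, leaving out probe sets under a mean log2 of 5 (24457 left, 26 of the 27 members), an intensity trend, array weights, no moderation, only the 2 groups compared, an adjusted p under 0.01, at least 1.5-fold, only single-symbol probe sets (41091), averaging the probe sets of a gene, and leaving out each array.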

Additional observations from a re-analysis of the deposited data

Results flagged for a closer look

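Probe sets outside the comparisons, the array and RNA controls, were higher on all 3 arrays at 25 µg/mL than on all 3 medium arrays. The mean of the poly-A controls was 0.613 higher on the log2 scale, that of the hybridization controls 0.427 higher and that of the 6 ribosomal RNA probe sets 0.643 higher, at 10.50 to 10.64 at 25 µg/mL and 9.76 to 10.03 in medium. The poly-A means were uneven, at 6.21, 5.56 and 6.31 on the 25 µg/mL arrays, beside 5.31 to 5.54 in medium. The part of these controls in the member results was not tested beyond the scaling given with those results.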

How the results depend on the processing

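No paired analysis was possible because the labels give no replicate number shared across groups. The replicate numbers used here follow the deposited order of the arrays within each group and pair nothing across groups. The members higher at 25 µg/mL against medium numbered 19 to 23 when any 1 array was left out, with 0 lower, and 7 to 8 member genes and 27 to 35 partner genes were called. Against 2.5 µg/mL the members higher stayed at 21 and against ions at 22 in each such fit. The shares of all probe sets and of all genes in these fits are not given here. HSPA9 200692_s_at and HSPA13 202557_at also lost their calls under median centring (adjusted p 0.076 and 0.07) and with only the 2 groups compared (0.069 and 0.06). The cause was not tested.

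At 25 µg/mL against medium, poly-A scaling called 10 members (7 higher, 3 lower), hybridization scaling 11 (8 higher, 3 lower) and a minimum of 1.5-fold 10 (10 higher). Those lower under both scalings were HSPA4 208814_at, HSPA9 232200_at and HSPA13 202558_s_at. Over all 54613 probe sets, poly-A scaling called 501 higher and 36144 lower, and hybridization scaling 1412 and 32263. Against 2.5 µg/mL the member counts were 13 (7 higher, 6 lower), 11 (10 higher, 1 lower) and 11 (11 higher). Against ions they were 12 (7 higher, 5 lower), 11 (9 higher, 2 lower) and 12 (12 higher). Over all probe sets, poly-A scaling called 349 higher and 45573 lower against 2.5 µg/mL, and 354 and 46859 against ions. Hybridization scaling called 1502 higher and 20284 lower against 2.5 µg/mL, and 1482 and 35435 against ions. Member genes called against medium were 3, 3 and 4, and partner genes at 1.5-fold 13. Shares of all genes under these rules, and of all probe sets at 1.5-fold, are not given here. Those counts therefore have no background beside them.

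Under poly-A scaling these log2 differences at 25 µg/mL against medium turned negative: HSPA8 to -0.18, -0.066, -0.26 and -0.22, HSPA2 to -0.23, HSPA14 226887_at to -0.092, HSPA4 to -0.27, -0.31 and -0.073, HSPA4L to -0.013 and -0.15, HSPA9 to -0.24 and -0.37, HSPA13 202557_at to -0.33, BAG2 to -0.12, BAG5 to -0.30, PPID to -0.22, HSCB to -0.070, PAM16 to -0.27, DNAJC2 to -0.091, GAK to -0.20 and HSPA5 to -0.39. HSPA14 219212_at and 226887_at turned to -0.0018 and -0.26 against 2.5 µg/mL and to -0.023 and -0.23 against ions. Under hybridization scaling, against medium, HSPA8 221891_x_at turned to -0.072 and 224187_x_at to -0.035, HSPA2 to -0.039, HSPA4 208815_x_at to -0.086 and 211015_s_at to -0.13, HSPA9 200690_at to -0.053 and 200692_s_at to -0.18, HSPA13 202557_at to -0.14, BAG5 to -0.12, PPID to -0.034, PAM16 to -0.088, GAK to -0.011 and HSPA5 to -0.20. None of the differences listed here as turned negative was called lower. These scalings shift every probe set of an array by 1 amount.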
